A study of Rattus norvegicus with 8 samples.

Results

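The cytosolic ribosomal proteins were followed in thigh skeletal muscle of rats fed compound 177, a sulfonyl isoxazoline. They were taken as all probes whose platform symbol begins with Rpl or Rps and a digit, together with Rplp0, Rplp1, Rplp2 and Rpsa, without the Rps6k kinases and without pseudogenes. This gave 68 probes for 67 genes, of 13337 genes named on the array. The rule uses names only, so it also takes in 5 paralogues of ribosomal proteins (Rpl3l, Rpl7l1, Rpl22l1, Rpl36al1 and Rpl37l1) and Rps19bp1, which binds a ribosomal protein but is not part of the ribosome. The study used 8 Wistar Han rats, with 1 Illumina bead array for each: 4 received 150 ppm of compound 177 in the diet for 28 days, and 4 controls received standard laboratory chow. Age and sex were not stated in the labels, and the series title states an interest in mitochondrial toxicity in muscle. All levels are log2 normalized intensities and all differences are compound 177 minus control on that scale, so a difference of 1 is a doubling. Levels of different probes cannot be set against each other, because each probe has its own response.

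The cytosolic ribosome joins a small subunit, which decodes the messenger RNA, to a large subunit, which forms the peptide bond and carries a flexible stalk that calls in the elongation factors. Most of its proteins are made in step, and in mammals their messenger RNAs begin with a C followed by an unbroken run of C and T letters (in RNA, C and U), the 5′ terminal oligopyrimidine or TOP motif. The kinase complex mTORC1 controls the translation of such messenger RNAs through this motif, so in muscle their protein output can move without a change in transcript level, which is all that an array reads.

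The choice of members by name did not use their sequence, and the start sites of 9 genes are shown. All but that of Rpl22l1, shown beside Rpl22 for contrast, carry a C and T run of at least 8 bases. The 9 do not stand for all members, because some others named below have shorter runs, among them Rpl6 and Rpl3 (5 bases each) and Rps4x (7 bases). Each sequence is the 50 bases from 25 before to 25 after the annotated start, from RefSeq (GRCr8). It is read 5′ to 3′ on the sense strand, which has the letters of the messenger RNA. Capitals mark the longest run made only of C and T.
Rplp0 (chr12:46718366-46718415, minus strand): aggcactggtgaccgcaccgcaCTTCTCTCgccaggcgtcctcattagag
Rplp1 (chr8:71290848-71290897, minus strand): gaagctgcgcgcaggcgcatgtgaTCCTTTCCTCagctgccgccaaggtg
Rplp2 (chr1:205975896-205975945, plus strand): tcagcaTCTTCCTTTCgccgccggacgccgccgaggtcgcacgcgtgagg
Rpl4 (chr8:73566452-73566501, plus strand): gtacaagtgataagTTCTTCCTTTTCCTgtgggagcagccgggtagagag
Rps9 (chr1:74430413-74430462, minus strand): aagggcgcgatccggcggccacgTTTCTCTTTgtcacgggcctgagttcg
Rps23 (chr2:23814492-23814541, plus strand): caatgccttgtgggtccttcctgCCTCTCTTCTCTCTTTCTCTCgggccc
Rps24 (chr16:96492-96541, plus strand): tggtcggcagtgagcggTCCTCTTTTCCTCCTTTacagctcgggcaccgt
Rpl22 (chr5:168117936-168117985, plus strand): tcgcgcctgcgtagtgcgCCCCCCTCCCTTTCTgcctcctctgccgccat
Rpl22l1 (chr2:113683171-113683220, plus strand): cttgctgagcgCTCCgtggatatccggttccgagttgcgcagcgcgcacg

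Of the 67 genes, 56 had an entry in the promoter table. A C and T run of at least 8 bases lay in the window of 43 of these 56 (76.8%), against 6485 of 33469 windows in the whole table (19.4%). A run of at least 8 bases made only of A and G, the same feature on the other strand, was found in 4 of the 56 (7.14%) and in 20.9% of all windows. The longest run had a median of 10 bases in the ribosomal protein windows and 5 in all windows. The letters CTTTC stood on the sense strand of 29 windows (51.8%), against 6.39% of all. On either strand they were in 51.8% of the ribosomal protein windows and 12.5% of all, and they can fall inside the runs just counted. Among the sequences shown, Rps23 has the longest run, of 21 bases, while Rpl22l1 has none longer than 4 although Rpl22, its paralogue, has 15. A run was counted wherever it lay in the window, so it need not be a TOP motif, which begins at the first base. That of Rplp2 starts at position -19 from the annotated start, is 10 bases long and ends before it. The 56 were counted at 1 window a gene, a limit not set for the whole table. These counts describe the letters and say nothing of the start used in this muscle.

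No ribosomal protein transcript passed the test between compound 177 and control muscle. Of the 68 probes, 63 for 62 genes were detected on at least 4 arrays and tested, and 0 of them had an adjusted p below 0.05 in limma, as was true of 0% of all 10212 tested probes. Their differences ran from -1.44 to 1.35, with a median of 0.03, beside 0.01 over all tested probes. Of the 63, 37 were above 0 and 26 below (58.7% above, beside 53.4% of all tested probes). With each array scaled to its median in place of quantile normalization, 48 of the 63 were above 0 (76.2%), beside 50.05% of all tested probes, and with cyclic loess 31 of the 63 were (49.2%), beside 49.7%, so the split of signs depends on the scaling. The smallest adjusted p among the members, and over all probes, was 0.9999. At an unadjusted p below 0.05 limma gave 0 higher and 1 lower member, Rplp2, where the shares over all tested probes were 2.26% higher and 1.62% lower. With the replicate number as a block, 2 members were higher at an unadjusted p below 0.05 (Rpl22l1, p 0.0249, and Rpl30, p 0.0467) and 1 lower (Rplp2, p 0.00575), where the shares over all tested probes were 3.55% and 2.88%. Their adjusted p in that fit of limma was 0.745. Whether the replicate numbers pair rats is not stated in the labels, here and wherever numbered pairs are named below. No member had groups that did not overlap, which was the case for 1.7% of all tested probes in the higher and 0.705% in the lower direction.

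For most members the fitted difference was small. In 35 members it was smaller than 0.1 in size and in 54 smaller than 0.2, and it exceeded 0.3 in 6. The 95% interval lay within 0.5 of 0 for 50 members (79.4%), against 55.04% of all tested probes, and its median half-width was 0.27, against 0.35 over all. Against 706 other probes between the quartiles of the members' signal the gap was smaller, with a median SE of 0.12 for the members and 0.13 for those probes. The intervals leave out the choice of scaling, and under median scaling the members' median difference was 0.0955. The arrays read bulk tissue, in which fewer cells of a type and less RNA per cell cannot be told apart.

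**Figure D1:**
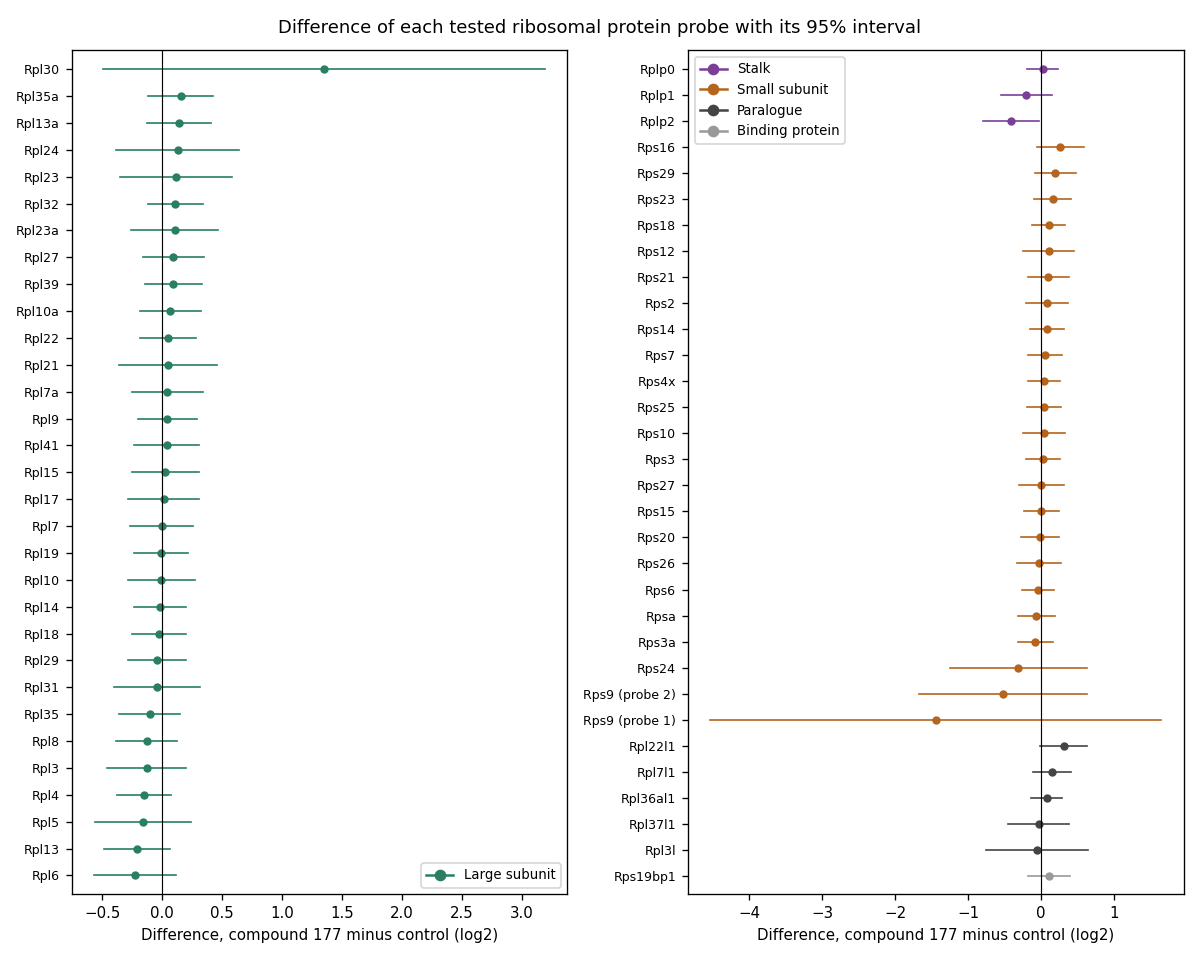
Difference of each of the 63 tested ribosomal protein probes, compound 177 minus control (log2, x axis), as a point with its 95% interval from limma. Large subunit proteins are on the left and the other classes on the right, where the x axis is wider; of all intervals only that of Rplp2 leaves out 0, and the longest belong to Rps9 and Rpl30.

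The stalk proteins came first by role. Rplp0 anchors the stalk on the large subunit, and the acidic proteins Rplp1 and Rplp2 bind it as dimers that contact elongation factors. Rplp2 (probe ILMN_1375860) read 5.55, 5.31, 5.80 and 5.90 in compound 177 replicates 1 to 4, against 6.09, 5.71, 6.26 and 6.16 in the control replicates. It was lower in the compound 177 rat of each same-numbered pair, but the groups overlapped, because control replicate 2 lay below the 2 highest compound 177 rats. Its mean was 5.64 ± 0.26 in compound 177 muscle and 6.05 ± 0.24 in control muscle (SD, n = 4 each), a difference of -0.41 with an SE of 0.17 (95% interval -0.79 to -0.03). The unadjusted p in limma was 0.0366 and the adjusted p 0.9999, so it did not pass. The probe was dim, with deposited intensities from 112 to 154, and in compound 177 replicate 2 its detection p was 0.0958, which is not above background. Without background correction the difference was -0.18 and its unadjusted p was not below 0.05.

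Rplp1 read 13.89, 14.01, 13.82 and 13.68 in compound 177 muscle, against 14.14, 14.40, 13.88 and 13.77 in control muscle. Each compound 177 rat again lay below the control of its number, with groups that overlapped, and the difference was -0.20 with an SE of 0.15 (unadjusted p in limma 0.228). Rplp0, often used as a steady transcript in PCR, read 15.35, 15.33, 15.30 and 15.27 in compound 177 muscle, against 15.37, 15.21, 15.29 and 15.29 in control muscle. The 8 rats lay close together, the difference was 0.02 with an SE of 0.10 (95% interval -0.19 to 0.24), and the SD between rats within groups was 0.05. Its deposited intensity reached 49437 units, on arrays whose brightest probes ran from 42838 to 59774.

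Among large subunit proteins, 17 of 31 probes were above 0 and 14 below, with a median difference of 0.02. Rpl30, a small protein of the large subunit that in yeast also binds its own transcript, had the widest difference. Its probe (ILMN_1372101) read 12.93, 13.63, 12.93 and 13.58 in compound 177 muscle, against 10.47, 13.80, 9.93 and 13.47 in control muscle. Control replicates 1 and 3 lay far below the other 6 rats, while control replicates 2 and 4 lay among the compound 177 rats. Before normalization the same rats stood out, with intensities of 10756, 10071, 7874 and 12487 in compound 177 muscle, against 1746, 10413, 1022 and 10845 in control muscle. The means were 13.27 ± 0.39 in compound 177 muscle and 11.92 ± 2.00 in control muscle (SD, n = 4 each). The difference of 1.35 had an SE of 0.82 (95% interval -0.49 to 3.19, unadjusted p in limma 0.132). It was 0.69 without control replicate 3 and 0.87 without control replicate 1, so its size rests on those 2 rats.

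Of the large subunit proteins that were lower in compound 177 muscle, the 4 with the smallest unadjusted p were Rpl13, Rpl4, Rpl6 and Rpl8, and none passed. Rpl13 read 10.85, 10.95, 11.01 and 11.28 in compound 177 muscle, against 11.22, 11.14, 11.37 and 11.20 in control muscle. Compound 177 replicate 4 lay among the controls, and the difference was -0.21 with an SE of 0.12 (unadjusted p in limma 0.122). Rpl4, which lines the tunnel through which the new chain leaves, read 14.08, 13.85, 13.93 and 13.96 in compound 177 muscle, against 14.13, 14.12, 14.12 and 14.05 in control muscle. It was lower in all 4 numbered pairs, by -0.15 with an SE of 0.10 (unadjusted p 0.161), and the groups met only where compound 177 replicate 1 lay above control replicate 4. Rpl6 read 13.61, 13.90, 13.50 and 13.71 in compound 177 muscle, against 14.06, 14.02, 14.02 and 13.53 in control muscle. Control replicate 4 lay about as low as the lowest compound 177 rat, and the difference was -0.23 with an SE of 0.15 (unadjusted p in limma 0.163). Rpl8, which sits near the peptidyl transferase centre, read 13.25, 13.14, 13.13 and 13.45 in compound 177 muscle, against 13.35, 13.30, 13.49 and 13.33 in control muscle. Its difference was -0.13 with an SE of 0.11. The steadiest of the large subunit was Rpl14, at 14.38, 14.31, 14.26 and 14.20 in compound 177 muscle, against 14.29, 14.34, 14.31 and 14.28 in control muscle. Its SD between rats within groups was 0.06 and its difference -0.02 with an SE of 0.10.

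**Figure D2:**
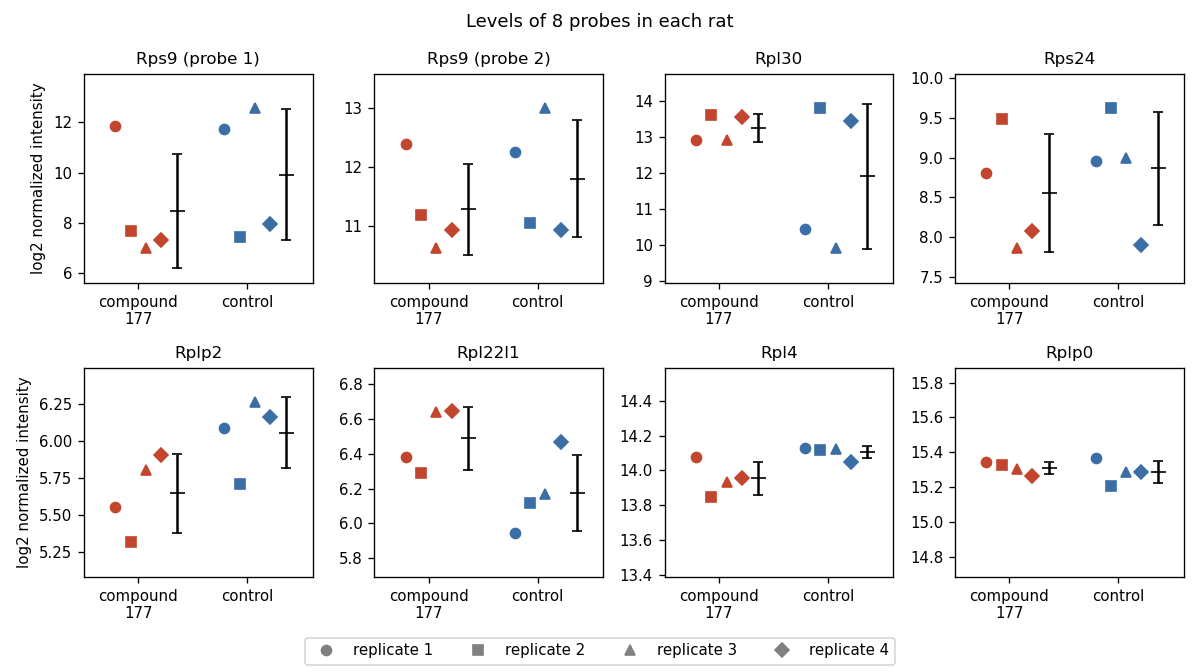
Log2 normalized intensity (y axis, a scale of its own in each panel) of 8 ribosomal protein probes in each rat, compound 177 in red and control in blue, with marker shapes for replicate numbers. Bars show the mean and SD of 4 rats; Rps9 and Rpl30 each have high and low rats, with high rats in both groups, while Rplp0 is nearly level.

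Among small subunit proteins, 15 of 23 probes were above 0 and 8 below, with a median difference of 0.04. Rps9, a protein that joins the small subunit early in its assembly, had 2 probes and the most variable signal of the members. Its probe ILMN_2038795 read 11.85, 7.68, 7.01 and 7.34 in compound 177 muscle, against 11.72, 7.43, 12.55 and 7.96 in control muscle. Its other probe, ILMN_2038796, read 12.40, 11.17, 10.62 and 10.93 in compound 177 muscle, against 12.25, 11.05, 13.00 and 10.92 in control muscle. On both probes compound 177 replicate 1 and control replicates 1 and 3 were high and the other 5 rats low, so each group held high and low rats. The highest rat exceeded the lowest 46.4-fold on ILMN_2038795 and 5.21-fold on ILMN_2038796. The differences, -1.44 with an SE of 1.38 and -0.53 with an SE of 0.51, were within the spread between rats (unadjusted p in limma 0.321 and 0.332). Of all tested probes, only 0.0685% had an SD between rats at least as large as the 2.44 of ILMN_2038795.

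The rats that were high or low differed between these genes. Control replicates 1 and 3 were high for Rps9 and low for Rpl30, whereas compound 177 replicate 1 was high for Rps9 and not low for Rpl30. An array probe reads the match between its own sequence and the transcript as well as the amount of transcript, and neither the probe sequences nor the alleles of the rats were used here. Rps24, altered in some people with the inherited red cell disorder Diamond-Blackfan anaemia, had the third most variable signal by gene. It read 8.80, 9.49, 7.86 and 8.07 in compound 177 muscle, against 8.96, 9.62, 8.99 and 7.90 in control muscle. It spread 3.36-fold between the highest and lowest rat, without separating the groups, and its difference was -0.31 with an SE of 0.42.

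Of the small subunit proteins that were higher in compound 177 muscle, the 3 with the smallest unadjusted p were Rps16, Rps29 and Rps23, and none passed. Rps16, whose tail reaches the transfer RNA in the decoding site, read 6.34, 6.67, 6.31 and 6.83 in compound 177 muscle, against 6.43, 6.26, 6.22 and 6.17 in control muscle. The difference was 0.27 with an SE of 0.14 (unadjusted p in limma 0.0926), and control replicate 1 lay above compound 177 replicates 1 and 3. This probe was dim, with deposited intensities from 140 to 186, and without background correction its difference was 0.13. Rps29 read 13.51, 13.47, 13.61 and 13.82 in compound 177 muscle, against 13.30, 13.31, 13.41 and 13.61 in control muscle. Each compound 177 rat exceeded the control of its number, by 0.20 on average with an SE of 0.12 (unadjusted p in limma 0.142), but control replicate 4 was about as high as compound 177 replicate 3. Rps23, a protein of the decoding centre, read 13.02, 12.74, 12.63 and 12.80 in compound 177 muscle, against 12.61, 12.71, 12.57 and 12.65 in control muscle. It was likewise higher in all 4 pairs, by 0.16 with an SE of 0.11. Rpsa, also known as the laminin receptor, read 13.52, 13.53, 13.28 and 13.37 in compound 177 muscle, against 13.42, 13.54, 13.38 and 13.60 in control muscle. Its difference of -0.06 with an SE of 0.11 was within the spread. Rps6, the protein that the S6 kinases phosphorylate, had a difference of -0.04 with an SE of 0.10.

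In all, 5 members (Rpl22l1, Rpl23a, Rpl36al1, Rps23 and Rps29) were higher in all 4 same-numbered pairs and 4 (Rpl4, Rpl5, Rplp1 and Rplp2) lower in all 4. Over all tested probes these shares were 9.3% and 6.46%, so the members' counts are close to the background.

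Several ribosomal proteins have a paralogue that can take their place in some tissues. Rpl3l, the form of Rpl3 that striated muscle uses in mouse and human, read 8.17, 8.45, 7.22 and 7.26 in compound 177 muscle, against 8.05, 8.13, 7.88 and 7.24 in control muscle. Its difference was -0.05 with an SE of 0.31 (95% interval -0.75 to 0.65), and replicates 1 and 2 of both groups lay above replicates 3 and 4. Rpl3, which sits beside the peptidyl transferase centre, read 12.82, 12.66, 12.72 and 12.32 in compound 177 muscle, against 12.92, 12.92, 12.62 and 12.57 in control muscle. Its difference was -0.13 with an SE of 0.15.

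Rpl22l1, whose level Rpl22 holds down in mouse, had the smallest p of the members that pointed higher. Its probe (ILMN_1368053) read 6.38, 6.29, 6.64 and 6.64 in compound 177 muscle, against 5.94, 6.12, 6.17 and 6.46 in control muscle. Control replicate 4 lay above compound 177 replicates 1 and 2. The means were 6.49 ± 0.18 in compound 177 muscle and 6.17 ± 0.22 in control muscle (SD, n = 4 each), and the difference was 0.32 with an SE of 0.14 (95% interval -0.01 to 0.64). The unadjusted p in limma was 0.0558 and the adjusted p 0.9999. Without background correction the difference was 0.15. Rpl22 read 13.65, 13.58, 13.57 and 13.49 in compound 177 muscle, against 13.69, 13.53, 13.48 and 13.41 in control muscle, a difference of 0.05 with an SE of 0.11.

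Rpl7l1, which takes part in the making of the large subunit, read 10.22, 10.26, 10.18 and 10.04 in compound 177 muscle, against 9.81, 10.03, 10.15 and 10.12 in control muscle. Its difference was 0.15 with an SE of 0.12, and it came from replicates 1 and 2. Rpl7 read 12.83, 12.84, 12.94 and 12.60 in compound 177 muscle, against 12.71, 12.70, 12.94 and 12.89 in control muscle, a difference of -0.01 with an SE of 0.12. Rpl36al1 was the least variable member, with an SD between rats of 0.05. It read 12.50, 12.54, 12.58 and 12.59 in compound 177 muscle, against 12.45, 12.49, 12.53 and 12.41 in control muscle, a difference of 0.08 with an SE of 0.09. Rpl37l1 had a difference of -0.03 with an SE of 0.18, and Rps19bp1 of 0.11 with an SE of 0.13.

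For 4 other ribosomal proteins with known paralogues, no paralogue was analysed here. Rpl10, which joins the large subunit late and helps to bind the small one, read 14.11, 13.73, 14.17 and 13.92 in compound 177 muscle, against 13.99, 13.92, 13.98 and 14.08 in control muscle. Rpl39, a small protein of the exit tunnel, read 13.13, 13.23, 13.20 and 13.21 in compound 177 muscle, against 13.13, 13.27, 13.03 and 12.97 in control muscle. Rps27 read 14.49, 14.25, 14.20 and 14.30 in compound 177 muscle, against 14.30, 14.60, 14.08 and 14.23 in control muscle. The groups overlapped for each of these, and the differences, -0.01, 0.09 and 0.01, were smaller than their SEs of 0.12, 0.11 and 0.14. Rps4x, encoded on the X chromosome, read 14.67, 14.56, 14.78 and 14.70 in compound 177 muscle, against 14.70, 14.63, 14.56 and 14.64 in control muscle, a difference of 0.04 with an SE of 0.10.

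Signal was not above background on any array for 5 members, namely Rpl11, Rpl12, Rpl34, Rpl36a and Rps19. Their deposited intensities ran from 74.5 to 124.5 and their detection p from 0.0958 to 0.902, so these probes give no level and were not tested. All these proteins but Rpl36a have no other probe or paralogue among the members. Many ribosomal protein genes have near-identical processed copies elsewhere in mammalian genomes, and cross-reading of such copies by the other probes was not tested.

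The spread between rats was small for most members. The SD within groups had a median of 0.14 over the 63 tested probes, against 0.22 over all tested probes. Over 706 other probes between the quartiles of the members' signal it was 0.16, while the 0.14 also takes in members outside that range. The SD was below 0.2 for 46 members and above 0.5 for 5 probes, which belong to Rps9, Rpl30, Rps24 and Rpl3l.

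**Figure D3:**
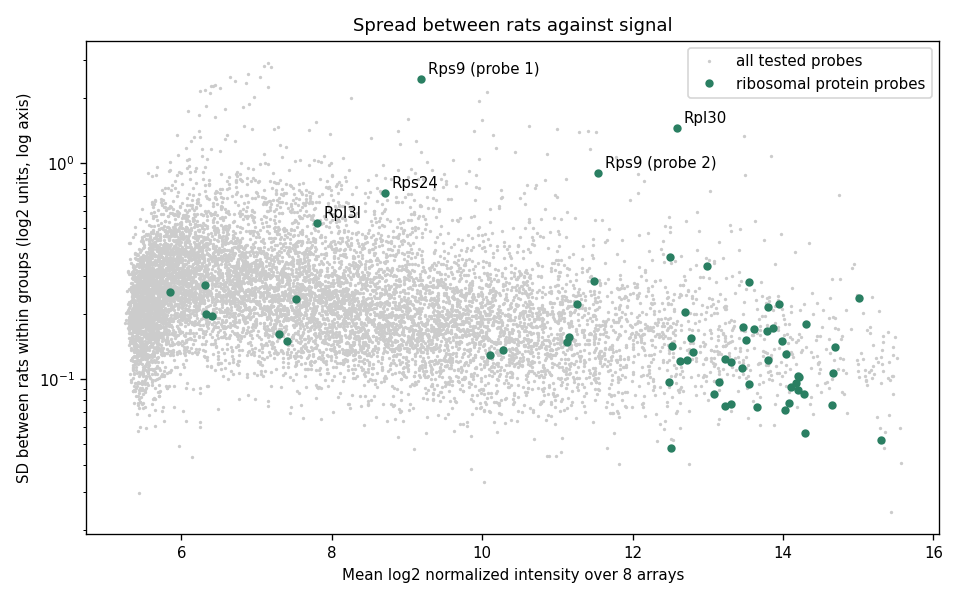
SD between rats within groups (log2 units, y axis, log scale) against mean log2 normalized intensity over 8 arrays (x axis), for all 10212 tested probes in grey and the 63 ribosomal protein probes in green. Most members lie where signal is high and spread low, and the 5 labelled probes of Rps9, Rpl30, Rps24 and Rpl3l lie above an SD of 0.5.

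Array by array, the members deviated little as a group. The median deviation of the members from their own mean over the 8 rats was 0.05, -0.001, 0.02 and -0.009 in compound 177 replicates 1 to 4, against 0.05, 0.02, -0.06 and -0.04 in the control replicates. The ranges overlapped, and the averages were 0.02 ± 0.03 in compound 177 muscle and -0.008 ± 0.05 in control muscle (SD, n = 4 each). Residuals around the group means, which leave out any shift between the groups, correlated between member pairs at a median of 0.03 over the 8 arrays. Of the pairs 52.4% were above 0, beside a median of 0.003 and 50.2% for the 706 other probes between the quartiles of the members' signal. This is a description over 8 arrays that share their normalization.

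Other genes on the same arrays had wider differences than most ribosomal proteins. The 13 annotated genes of the muscle fibre list, which define the labelled tissue, were detected on all 8 arrays, with a median difference of -0.04. The 12 slow-fibre genes were all below 0, with a median difference of -1.02. It was -0.21 within replicates 1 and 2, with 4 of the 12 above 0, and -1.70 within replicates 3 and 4, with 0 above. Their median deviation ran from -1.02 to 0.76 in compound 177 muscle and from -0.86 to 1.11 in control muscle. The 14 fibroblast and matrix genes were all below 0, with a median of -0.67 and array medians from -1.14 to 0.52 in compound 177 muscle and from -0.21 to 0.66 in control muscle. None of these genes passed the test. The macrophage list had a median of -0.34 (0 of 8 above 0), nerve -0.48 (0 of 4), adipocyte -0.31 (2 of 6), blood -0.30 (1 of 5), smooth muscle -0.16 (1 of 5), endothelium 0.08 (6 of 9) and lymphocyte 0.07 (3 of 3). Of these, adipocyte (-0.58 and 0.13) and smooth muscle (0.12 and -0.27) changed sign between replicates 1 and 2 and replicates 3 and 4, and so did lymphocyte (-0.001 and 0.14). The part of tissue make-up in the members' differences was not tested.

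**Figure D4:**
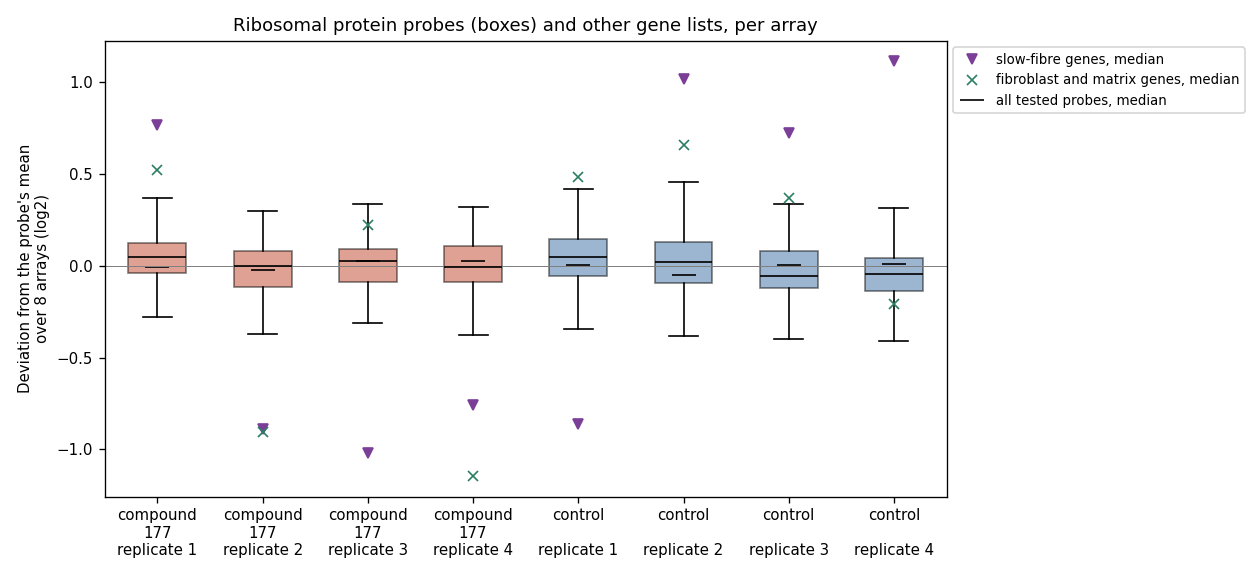
Deviation from each probe's mean over 8 arrays (log2, y axis) on each array (x axis, compound 177 then control). Boxes span the quartiles of the 63 ribosomal protein probes with whiskers to the farthest probe within 1.5 times the box length and farther probes not drawn; the boxes stay near 0 while the slow-fibre medians (triangles) run from -1.02 to 1.11 and the matrix medians (crosses) from -1.14 to 0.66.

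The authors' normalized values fall into 2 sets of arrays, replicates 1 and 2 of both groups and replicates 3 and 4 of both groups, each with its own common distribution. Within the first set the members' median difference was 0.006 (33 of 63 above 0), and within the second it was 0.06 (40 of 63). Replicates 1 and 2 did not overlap replicates 3 and 4 for 11 members (17.5%), against 14.1% of all tested probes. Of these, Rpl3l, Rpl24, Rpl21, Rpl23a, Rplp1, Rps10 and Rpl7a were higher in replicates 1 and 2, by 0.80, 0.59, 0.47, 0.38, 0.32, 0.27 and 0.23. Rpl23, Rpl37l1, Rps12 and Rpl10a were lower there, with differences of -0.54, -0.42, -0.32 and -0.17. In each of these 11 the difference between the sets of arrays is larger than that between compound 177 and control. This follows from how they were picked, because the groups are balanced over the sets.

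Genes that work with the ribosome were read from the same fit, and 0 probes of any of these lists passed. Of the proteins of the separate mitochondrial ribosome, 52 of 57 were above 0, with a median of 0.16 and medians of 0.17 and 0.14 within the first and second set of arrays. The cytosolic members stood at 37 of 63 and 0.03. The mitochondrial median was from 0.14 to 0.18 under the 3 other scalings or background settings tried, and that of the cytosolic members from -0.001 to 0.10. Whether the lists differ was not tested.

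The translation elongation list holds elongation factors, most of whose transcripts carry the TOP motif like those of the ribosomal proteins. It also holds genes that are not elongation factors, among them Naca, Btf3, Tpt1, Etf1, Gspt1, Abce1 and Eef1akmt1. Of its 16 probes, 13 were below 0, with a median of -0.08, and 4 of the 13 came from Eef1a1. The 3 probes above 0 were Eef1akmt1, Gspt1 and Etf1, none of them an elongation factor. Under median scaling 10 of the 16 were below 0, with a median of -0.03, and under cyclic loess 13, with a median of -0.13. Eef2, which moves the ribosome along the messenger RNA, had a difference of -0.26 with an SE of 0.13 (unadjusted p in limma 0.0721). The 4 probes of Eef1a1, which delivers transfer RNAs, gave -0.28, -0.27, -0.26 and -0.21, with SEs from 0.15 to 0.25. Within replicates 1 and 2 they were at -0.44, -0.42, -0.52 and -0.06, and within replicates 3 and 4 at -0.12, -0.11, -0.01 and -0.36, so the probes disagreed on which set was further below 0. Eef1akmt1 and Gspt1 were at 0.23 and 0.12. Initiation factors divided evenly, with 12 of 23 above 0 and a median of 0.03, and the members with the smallest p were Eif2b2 and Eif2s3 (both 0.14), Eif3c (-0.19) and Eif4g3 (-0.18).

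Ribosome biogenesis genes had 32 of 61 probes above 0 and a median of 0.005. Isg20l2, a nuclease of ribosomal RNA processing, was at 0.45 with an SE of 0.19 (unadjusted p in limma 0.0429), and Ubtf, which assists RNA polymerase I, was at -0.29. Efl1 and Utp15 were at 0.28 and -0.28. Of the regulators of mTORC1 and of TOP messenger RNAs, 15 of 24 were above 0, with a median of 0.03. Eef2k, the kinase that inhibits eEF2, was at 1.14 with an SE of 0.24, and Lamtor4, a subunit of the complex that holds mTORC1 at the lysosome, at 0.47 with an SE of 0.11. Their unadjusted p in limma was 0.000974 and 0.00229, and neither passed, with an adjusted p of 0.9999. Eif4ebp1 and Rraga were at -0.24 and -0.11. Rack1, a ribosomal protein that the naming rule leaves out, was at -0.05 with an SE of 0.10.

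**Figure D5:**
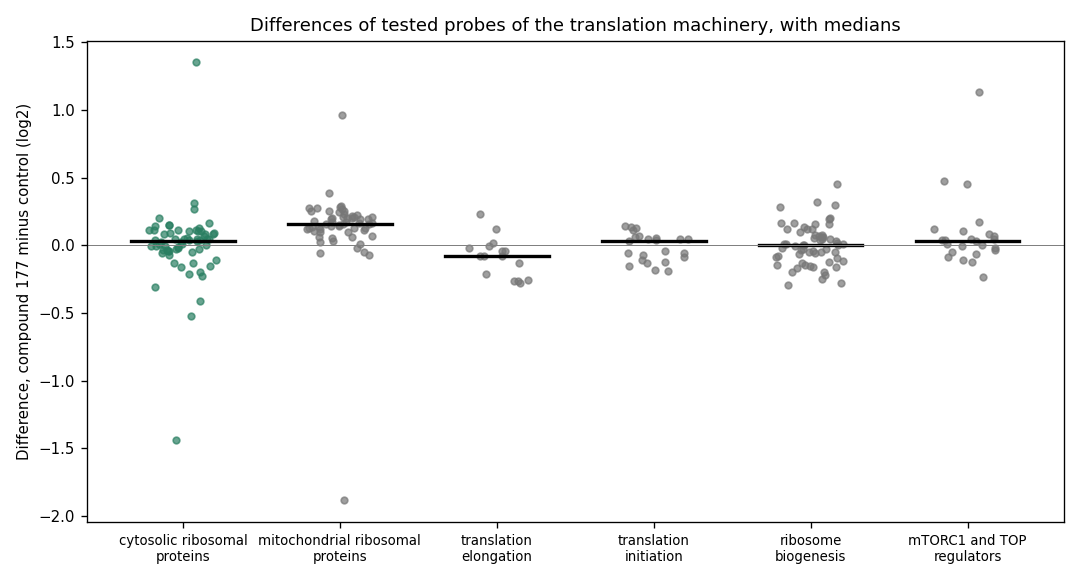
Difference of each tested probe, compound 177 minus control (log2, y axis), for the cytosolic ribosomal proteins (green) and 5 related lists (grey), with a bar at each median. The cytosolic ribosomal proteins centre on 0.03, the mitochondrial ribosomal proteins on 0.16 and the translation elongation list on -0.08, and 0 of the points pass the adjusted test.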

How the data were processed

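Total RNA of thigh muscle from 8 rats was hybridized as biotin-labelled cRNA (labels' protocols). The authors deposited a linear intensity per probe without normalization between arrays, with a detection p-value beside each, per the file headers; their normalized table was used as an alternative, and the table of series values equals it (largest difference 0, linear, not centred). For the scanner's software and background step, nothing is stated. Median intensity per array ran from 97.5 to 124.7, between 9261 and 10620 probes were detected, and arrays correlated at 0.965 to 0.991.

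Intensities were corrected and quantile-normalized with neqc (offset 16, background from the detection p) of limma 3.58.1 in R 4.3.3. Probes with a detection p below 0.05 on at least 4 of 8 arrays were fitted with lmFit and eBayes (two-sided, Benjamini-Hochberg over all 10212). Symbols came from the platform annotation: 13793 probes had 1 symbol and 8730 are unnamed here. Of the 68 member probes, 66 matched a RefSeq gene by identifier; Rps9 was matched by symbol for its promoter. Members and lists were chosen with earlier results of these data known. Values on every array are given for 6 members a direction, by p, the stalk proteins and Rpsa, paralogue pairs, the 3 most and 3 least variable, and members with several probes, while those under background are given by count and name; each related list gives up to 2 in each direction. Members named outside this rule, such as Rps6, were chosen after their values were seen.

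Alternatives were other background corrections, median scaling, cyclic loess, the authors' table, other filters, blocks, array weights, single sets of arrays and each array left out. The labels do not say that replicate numbers pair rats. Residuals of same-numbered rats correlated at 0.24, 0.47, 0.12 and 0.43 for replicates 1, 2, 3 and 4. The highest correlations with a rat of another number were 0.05, -0.08, 0.29 and 0.24. For replicate 3 a rat of another number was thus closer than the same-numbered rat. The numbers were taken as pairs in the block as an alternative only, and the pairing is not established. The test was checked on simulated data. It recovered 22.4% of planted differences of 0.5, 71.6% of those of 1 and 92.4% of those of 2. Noise was drawn independently for each simulated array, and 127 simulated probes were called. The adjusted cutoff was therefore looser there than in the real data, where 0 probes were called. These rates are thus not the power of the test on the real arrays. Recovery of smaller differences was not looked at. The design text speaks of rats, so replicates were taken as separate animals.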

Additional observations from a re-analysis of the deposited data

Results flagged for a closer look

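Of 56 groups of 4 rats looked at for a single rat far from the others, 3 held one, and chance alone gives about 1 in 20. For Rps9, probe ILMN_2038795, compound 177 replicate 1 read 11.85 while the other compound 177 rats lay between 7.01 and 7.68. For Rpl6, control replicate 4 read 13.53 while the other controls lay between 14.02 and 14.06. For Rpl4, control replicate 4 read 14.05 while the other controls lay between 14.12 and 14.13.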

How the results depend on the processing

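Under all alternatives run, 0 ribosomal protein probes and 0 of all tested probes passed. With the replicate number as a replicate block the counts were also 0 and 0, and the smallest adjusted p of a member in limma was 0.745. Each block holds 1 rat of each group, so this fit must return the same differences and the same members' median of 0.03. The block changed no call at an adjusted p. At an unadjusted p below 0.05 in limma it gave 2 members higher and 1 lower, against 0 and 1 without it. The members' median difference of 0.03 moved to 0.0955 under median scaling, and was from 0.01 to 0.05 with 1 array left out. Some differences changed sign. Under median scaling Rpsa was 0.0267, Rpl7 0.0397, Rpl10 0.0570 and Rpl14 0.0624. Under cyclic loess Rplp0 was -0.0596 and Rps27 -0.00101. With array weights Rpl10 was 0.0283. In replicates 1 and 2 alone Rpsa was 0.0468, Rpl3l 0.221, Rpl7 0.130, Rpl39 -0.0208, Rps27 -0.0838, Rps4x -0.0518, Rpl14 0.0304, and Rps9 0.191 (probe ILMN_2038795) and 0.137 (probe ILMN_2038796). In replicates 3 and 4 alone Rpl7l1 was -0.0273, Rplp0 -0.00229 and Rpl10 0.0139. With 1 array left out, Rplp0 ranged from -0.00178 to 0.0525, Rpl3l from -0.279 to 0.132, Rpl7 from -0.0522 to 0.0603, Rpl10 from -0.0716 to 0.0739, Rps27 from -0.0658 to 0.109 and Rpl14 from -0.0486 to 0.0102. The cause of these moves was not tested. The wide members also moved, Rpl30 from 0.69 to 1.99 and Rps9 (ILMN_2038795) from -2.56 (without compound 177 replicate 1) to -0.56 (without control replicate 3) and Rps24 from -0.63 (without control replicate 4) to -0.06 (without control replicate 2). Rplp2 gave no value under the filter on all 8 arrays. Signal over background limits the dim probes, such as Rplp2, Rpl22l1 and Rps16, whose differences shrank without background correction.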
